A study of Mus musculus with 9 samples.

Results

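The RNA levels of 10 genes of the TNF, IL-1 and IL-6 cytokine families were examined in mouse spinal cord: the cytokines Tnf, Il1a, Il1b, Il6 and Lif, the receptors Tnfrsf1a, Tnfrsf1b, Il1r1 and Il1r2, and the IL-1 receptor antagonist Il1rn. They were taken by name, by matching their symbols to the gene identifiers of the deposited count table, and are 10 of its 52550 genes. After a filter on low counts, 9 of them were among the 18699 genes that could be tested, and Il6 was not.

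RNA was measured in 9 adult female C57BL/6N mice, 3 in each of 3 groups, with each numbered sample taken as 1 mouse. Sham mice received a laminectomy with no contusion, SCI mice received a contusion at T10 and intraperitoneal DMSO, and SCI+FIPI mice received the same contusion and 0.9 mg/kg of FIPI each day from the time of injury. FIPI is a small-molecule inhibitor of phospholipase D (PLD), so SCI against Sham asked what the injury changed and SCI+FIPI against SCI asked what the inhibitor changed in injured cord. The cord segment around the injury was taken on day 7, so each value is an average over all cells of that segment, and the study's methods give injections for the injured groups only. A total of 20806000 to 24582377 counts was recorded per mouse. The groups also differed in the RNA of myeloid markers, given in CPM (counts scaled to a common library total). The 10 markers were Itgam, Cd68, Csf1r, Aif1, Ptprc, Tyrobp, Fcer1g, Cx3cr1, Adgre1 and Lyz2, and all 10 were detected in every mouse. Their summed level was 399 to 566 CPM in Sham, 6179 to 7477 in SCI and 4515 to 5814 in SCI+FIPI. In such bulk tissue, fewer cells of a type and less RNA per cell cannot be told apart.

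TNF is made as a membrane protein, is cut free by the protease ADAM17 and binds TNFR1 (Tnfrsf1a) and TNFR2 (Tnfrsf1b). TNFR1 is found on most cells and carries a death domain, whereas TNFR2 has none and is found mainly on immune, glial and endothelial cells. IL-1α and IL-1β (Il1a, Il1b) both bind IL-1R1 (Il1r1), which signals to NF-κB. IL-1RN (Il1rn) occupies the same receptor without signaling, and IL-1R2 (Il1r2) is a decoy that binds IL-1 but lacks a signaling domain. IL-6 and LIF act through receptors that share gp130 (Il6st) and activate STAT3. In the injured spinal cord these cytokines are known as early products of microglia, astrocytes and infiltrating leukocytes.

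Sequence just upstream of the transcription start is shown for 4 genes that stand for the differing promoter types of the set, because such genes are textbook targets of NF-κB, AP-1 and STAT factors. The 250 bases before the RefSeq start of each gene (GRCm38.p6) are written 5′ to 3′ on the strand of the gene, with matches to the κB, AP-1 (TGANTCA) or STAT (TTCNNNGAA) motif in capitals, both strands having been searched. Il6 lies at chr5:30012864-30013113 on the plus strand, Lif at chr11:4257318-4257567 on the plus strand, Il1r2 at chr1:40085843-40086092 on the plus strand and Tnf at chr17:35202008-35202257 on the minus strand.
Il6: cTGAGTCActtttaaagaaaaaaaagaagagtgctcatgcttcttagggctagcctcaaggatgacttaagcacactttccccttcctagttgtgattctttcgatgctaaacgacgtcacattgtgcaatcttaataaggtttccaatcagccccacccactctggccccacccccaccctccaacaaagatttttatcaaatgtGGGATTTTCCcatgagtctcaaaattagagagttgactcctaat
Lif: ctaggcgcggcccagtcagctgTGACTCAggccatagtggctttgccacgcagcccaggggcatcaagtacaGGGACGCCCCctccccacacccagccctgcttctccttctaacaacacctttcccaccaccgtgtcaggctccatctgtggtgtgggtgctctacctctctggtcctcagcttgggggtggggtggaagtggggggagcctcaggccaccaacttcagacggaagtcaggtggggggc
Il1r2: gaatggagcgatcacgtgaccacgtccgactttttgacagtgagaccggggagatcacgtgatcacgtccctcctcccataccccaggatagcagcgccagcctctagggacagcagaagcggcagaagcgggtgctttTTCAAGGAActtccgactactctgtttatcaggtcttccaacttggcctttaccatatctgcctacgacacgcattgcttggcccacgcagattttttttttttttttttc
Tnf: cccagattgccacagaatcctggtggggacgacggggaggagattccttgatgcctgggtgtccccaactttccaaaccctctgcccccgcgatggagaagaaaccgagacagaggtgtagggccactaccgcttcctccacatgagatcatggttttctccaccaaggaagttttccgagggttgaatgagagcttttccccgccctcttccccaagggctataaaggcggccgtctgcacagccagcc

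The Il6 window held the κB match GGGATTTTCC that begins 44 bases before the start, and an AP-1 match that begins 249 bases before it. The Lif window held the κB match GGGACGCCCC at 178 bases and an AP-1 match at 228 bases before the start. The Il1r2 window held a single match, a STAT motif at 111 bases before the start, and the Tnf window held no match to these letters. Over the 10 genes, which had 13 RefSeq promoter entries, the κB motif also occurred at 1 of the starts of Il1r1, the AP-1 motif at Il1a and at 1 start of Il1rn, and the STAT motif at Tnfrsf1a and Tnfrsf1b. Among 32851 promoters of the same length, 7.25% held the κB motif, 6.75% the AP-1 motif and 7.02% the STAT motif. These matches describe letters in a short window and not binding.

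All 9 genes tested were called higher in SCI than in Sham, where 24.4% of the 18699 genes tested were called higher. A gene was called at a log2 fold change of at least 0.5 in size and an adjusted p-value under 0.05 from the edgeR quasi-likelihood test. Between SCI+FIPI and SCI, 3 of the 9 (Tnf, Il1r1 and Il1r2) were called lower and none was called higher, where 0.695% of all genes tested were called lower and 2.36% higher. Between SCI+FIPI and Sham, 8 of the 9 were called higher, against 21.2% of all genes tested, and Il1r2 was not. The median log2 fold change of the 9 genes was 2.43 for SCI against Sham, -0.60 for SCI+FIPI against SCI and 2.01 for SCI+FIPI against Sham, and the median over all genes tested was within 0.01 of 0 in each. The comparisons of SCI with Sham and of SCI+FIPI with SCI use the same SCI mice, so a chance high value in SCI would move a gene up in the first and down in the second. Tnf was singled out by the study from these same mice, and its plots of changed genes also show Il1r1, Il1r2 and Il1rn, so the directions of these genes here are not independent of that choice.

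**Figure D1:**
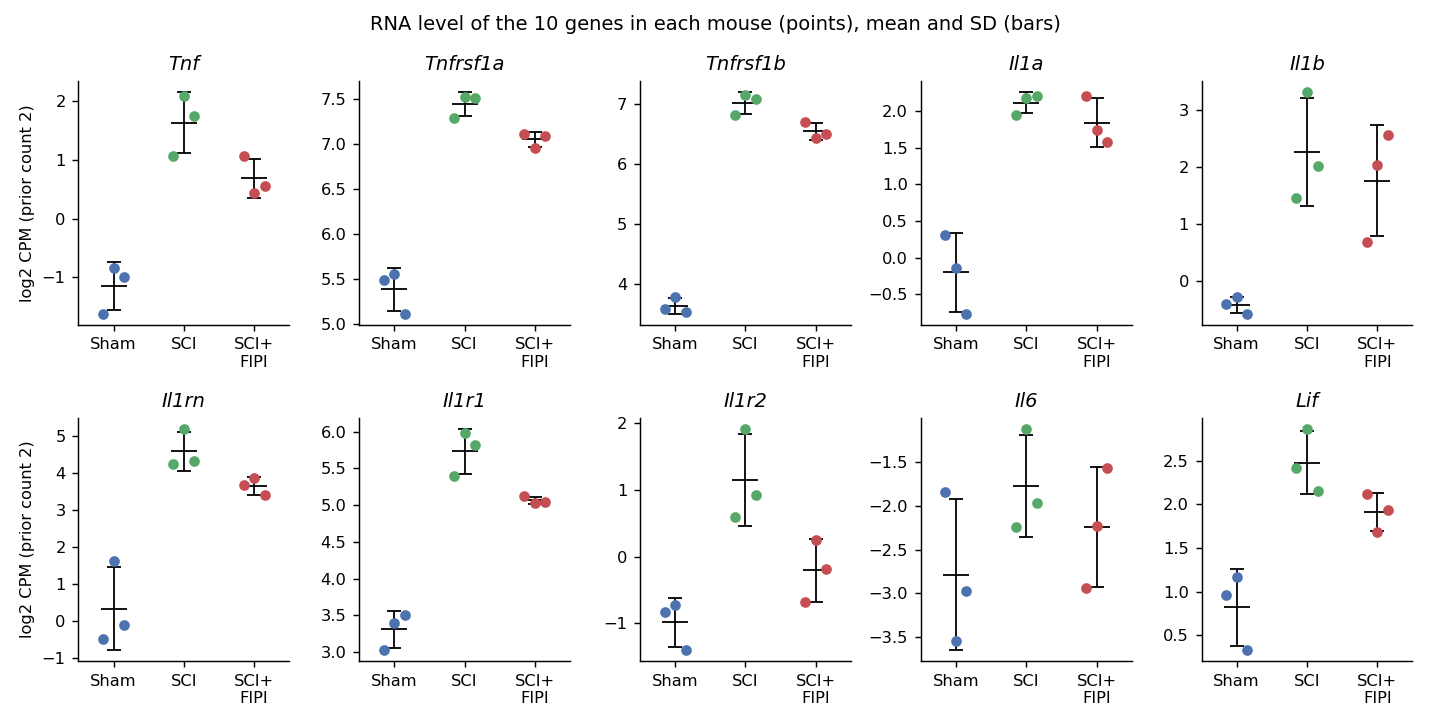
The level of each of the 10 genes, as log2 CPM with a prior count of 2 (y axis, a separate scale for each gene), is plotted for the 3 mice of each group, with horizontal bars at the mean and vertical bars of 1 SD. In 9 of the 10 genes every SCI mouse lay above every Sham mouse, and Il6, which had at most 9 counts in any mouse, is the exception.

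Tnf, the founding ligand of its superfamily (ENSMUSG00000024401, chr17:35199381-35202007), was low in every mouse. Its level was 0.240, 0.475 and 0.418 CPM in the 3 Sham mice, 2.01, 4.18 and 3.29 CPM in the SCI mice and 2.01, 1.27 and 1.38 CPM in the SCI+FIPI mice, which corresponds to 26, 227 and 108 counts per group. The SCI mice were all above the Sham mice. The highest SCI+FIPI mouse fell just under the lowest SCI mouse in CPM. On unscaled library totals, per kilobase of exon, it lay just above that mouse (1.23 against 1.21). Tnf was higher in SCI than in Sham by 3.03 on the log2 scale (SE 0.358, edgeR adjusted p = 2.78e-06) and lower in SCI+FIPI than in SCI, with a log2 fold change of -1.02 (SE 0.292, edgeR adjusted p = 0.0408). It was still higher in SCI+FIPI than in Sham by 2.01. The call between SCI+FIPI and SCI depended on single mice: the edgeR adjusted p was 0.185 without SCI mouse 2, 0.113 without SCI mouse 3, 0.177 without SCI+FIPI mouse 2 and 0.124 without SCI+FIPI mouse 3, with log2 fold changes of -0.77 to -1.26 over all mice left out in turn. It was also lost, with an adjusted p of 0.0583, in limma-voom.

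Tnfrsf1a, the receptor with the death domain (ENSMUSG00000030341, chr6:125349362-125362484), was at 44.9, 46.9 and 34.5 CPM in Sham, 156, 184 and 183 CPM in SCI and 138, 124 and 137 CPM in SCI+FIPI. The groups did not overlap in any of the 3 comparisons. The log2 fold change was 2.05 for SCI against Sham (SE 0.109, edgeR adjusted p = 1.22e-08). For SCI+FIPI against SCI it was -0.39 (SE 0.103, edgeR adjusted p = 0.0361), which passed the limit on p but not that on the fold change.

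Tnfrsf1b, the receptor without a death domain (ENSMUSG00000028599, chr4:145213463-145246870), was at 11.98, 13.78 and 11.58 CPM in Sham, 112, 143 and 136 CPM in SCI and 105, 86.5 and 90.5 CPM in SCI+FIPI. Again each group was apart from the others, with the SCI+FIPI mice nearer to SCI than to Sham. Its rise from Sham to SCI was 3.39 on the log2 scale (SE 0.113, edgeR adjusted p = 1.51e-10). The log2 fold change of SCI+FIPI against SCI was -0.48 (SE 0.0965, edgeR adjusted p = 0.0121), just short of the fold limit, and it passed that limit without SCI mouse 1 (-0.57) or without SCI+FIPI mouse 1 (-0.56).

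Tnfrsf1b was higher relative to Tnfrsf1a in every injured mouse than in every Sham mouse. Levels of different genes were set against each other as FPKM, which is CPM per kilobase of exon. The ratio of Tnfrsf1b to Tnfrsf1a was 0.181, 0.199 and 0.228 in the Sham mice, 0.488, 0.526 and 0.503 in the SCI mice and 0.513, 0.471 and 0.450 in the SCI+FIPI mice. The 2 injured groups overlapped each other. On the log2 scale the ratio was -2.31 ± 0.166 (SD, n = 3) in Sham, -0.98 ± 0.0549 in SCI and -1.07 ± 0.0968 in SCI+FIPI. The difference of SCI from Sham was 1.32 (exact permutation test, two-sided, p = 0.1, the smallest that 3 mice against 3 allow, and 0.533 after adjustment over 24 ratio tests). The ratio of Tnfrsf1b to Tnf was apart only for SCI+FIPI against Sham, by 0.89 on the log2 scale (exact permutation p = 0.1, 0.533 adjusted).

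Il1a, the IL-1 form that is active without cleavage (ENSMUSG00000027399, chr2:129299610-129309972), was at 1.15, 0.821 and 0.501 CPM in Sham, 3.77, 4.47 and 4.56 CPM in SCI and 4.56, 3.26 and 2.89 CPM in SCI+FIPI. The injured mice were all above Sham, and the SCI+FIPI mice spanned the SCI range and reached below it. The log2 fold change was 2.38 for SCI against Sham (SE 0.273, edgeR adjusted p = 2.02e-06) and -0.26 for SCI+FIPI against SCI, with a 95% interval of -0.75 to 0.23 (edgeR adjusted p = 0.527). Of its exonic bases, 11.2% overlap Gm14023 on the opposite strand and 9.14% of its 50-base stretches occur in another gene, so some of its reads could belong to that gene.

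Il1b, which is made as a precursor and cut by caspase-1 (ENSMUSG00000027398, chr2:129364570-129371139), varied widely among the injured mice. It was at 0.671, 0.734 and 0.585 CPM in Sham, 2.64, 9.84 and 3.97 CPM in SCI and 1.52, 3.98 and 5.83 CPM in SCI+FIPI. Every injured mouse was above every Sham mouse, while the SCI and SCI+FIPI mice were interleaved. The rise from Sham to SCI was 3.04 on the log2 scale (SE 0.728, edgeR adjusted p = 0.00734), and 2.31 without SCI mouse 2 (edgeR adjusted p = 0.00405). For SCI+FIPI against SCI the log2 fold change was -0.53 with a 95% interval of -1.91 to 0.84 (edgeR adjusted p = 0.634), and it changed sign to 0.20 (adjusted p = 0.857) without SCI mouse 2. SCI+FIPI was above Sham by 2.51 (edgeR adjusted p = 0.0221), a call that was lost without any single Sham mouse (adjusted p of 0.0620, 0.0619 and 0.0784 for mice 1, 2 and 3) and without SCI+FIPI mouse 2 (0.0527) or 3 (0.0573). Of its exonic bases, 1.31% overlap Il1bos on the opposite strand.

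SCI+FIPI mouse 1 was the lowest of its group in Il1b and also in neutrophil markers. The summed level of 10 neutrophil genes (S100a8, S100a9, Ly6g, Mmp8, Camp, Ltf, Ngp, Retnlg, Cxcr2 and Csf3r) was 99.0, 222 and 214 CPM in SCI+FIPI mice 1, 2 and 3, and 1 of the 10 was at 0 in mouse 1. In SCI the same sum was 155, 151 and 152 CPM, where Il1b was highest in mouse 2. In Sham it was 79.7, 141 and 62.6 CPM. Only Mmp8 and Csf3r of the 10 were called higher in SCI than in Sham. Csf3r alone had means of 28.6, 83.4 and 74.8 CPM in Sham, SCI and SCI+FIPI. Other sums were also lowest in SCI+FIPI mouse 1, such as marrow precursors (2.37 against 8.10 and 8.77 CPM) and Schwann cells (498 against 1168 and 1150 CPM). The myeloid, homeostatic microglia and skeletal muscle sums were highest in that mouse. The part of any of these in the level of Il1b was not tested.

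Il1rn, the receptor antagonist (ENSMUSG00000026981, chr2:24336853-24351494), had the largest rise among the 9 genes tested. Its level was 0.623, 2.98 and 0.836 CPM in Sham, 19.0, 36.4 and 19.8 CPM in SCI and 12.7, 14.5 and 10.4 CPM in SCI+FIPI. Sham mouse 2 stood above the other Sham mice, and no 2 groups overlapped. The log2 fold change was 4.06 for SCI against Sham (SE 0.540, edgeR adjusted p = 0.000436) and 3.07 for SCI+FIPI against Sham. Without Sham mouse 2 these values were 5.08 and 4.08 (edgeR adjusted p = 5.1e-05 and 0.000275). Between SCI+FIPI and SCI it was -1.0, close to that of Tnf, but with a wider 95% interval of -2.0 to 0.01 (edgeR adjusted p = 0.202), and limma-voom called it (-0.94, adjusted p = 0.0386).

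Relative to Il1a, the antagonist was higher in every SCI mouse than in every Sham mouse. By FPKM the ratio of Il1rn to Il1a was 0.193, 1.30 and 0.594 in Sham, 1.79, 2.91 and 1.55 in SCI and 0.996, 1.59 and 1.29 in SCI+FIPI. SCI lay above Sham in every mouse, by 1.88 on the log2 scale (exact permutation p = 0.1, 0.533 adjusted over 24 tests), and SCI+FIPI overlapped both other groups. The ratio of Il1rn to Il1b was 0.320, 1.40 and 0.492 in Sham, 2.47, 1.28 and 1.72 in SCI and 2.89, 1.26 and 0.617 in SCI+FIPI, and all 3 groups overlapped. The size of these ratios depends on the length used, since the exons of Il1rn span 5535 bases in all and its longest transcript 2554. With the longest transcript of each gene the ratio of Il1rn to Il1a was 0.419, 2.81 and 1.29 in Sham and 3.88, 6.30 and 3.36 in SCI, so whether the antagonist lay above the ligand in Sham cannot be told from these counts.

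Il1r1, the signaling receptor (ENSMUSG00000026072, chr1:40225080-40317257), was at 8.05, 10.5 and 11.3 CPM in Sham, 41.8, 63.3 and 56.3 CPM in SCI and 34.8, 32.7 and 32.8 CPM in SCI+FIPI. The SCI+FIPI mice lay within about 2 CPM of each other and below all SCI mice. Its log2 fold change was 2.43 for SCI against Sham (SE 0.161, edgeR adjusted p = 2.35e-07), -0.69 for SCI+FIPI against SCI (SE 0.146, edgeR adjusted p = 0.0187) and 1.75 for SCI+FIPI against Sham. The call against SCI was lost without SCI mouse 3 (adjusted p = 0.0878), SCI+FIPI mouse 2 (0.0937) or SCI+FIPI mouse 3 (0.0654), while the log2 fold change stayed between -0.56 and -0.84.

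Il1r2, the decoy receptor (ENSMUSG00000026073, chr1:40074079-40125231), rested on 29, 166 and 57 counts in the 3 groups. It was at 0.479, 0.518 and 0.293 CPM in Sham, 1.43, 3.68 and 1.81 CPM in SCI and 0.536, 1.10 and 0.797 CPM in SCI+FIPI. The groups were ordered Sham, SCI+FIPI and SCI without overlap, although the lowest SCI+FIPI mouse was only just above the highest Sham mouse. The log2 fold change was 2.42 for SCI against Sham (SE 0.423, edgeR adjusted p = 0.000139). It was -1.50 for SCI+FIPI against SCI (SE 0.383, edgeR adjusted p = 0.0258), the lowest value among the 9 genes in this comparison. Of the 9 genes it alone was not called between SCI+FIPI and Sham (0.92, SE 0.470, edgeR adjusted p = 0.107). The call against SCI was lost without SCI mouse 2 (-0.99, adjusted p = 0.148) and without SCI+FIPI mouse 1 (0.0802), 2 (0.0594) or 3 (0.0789).

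The ratio of the decoy to the signaling receptor did not set the groups apart. Il1r2 was 0.199, 0.165 and 0.0865 of Il1r1 by FPKM in Sham, 0.114, 0.194 and 0.107 in SCI and 0.0514, 0.112 and 0.0811 in SCI+FIPI. The SCI+FIPI values were mostly the lower ones, but the difference from SCI of -0.76 on the log2 scale could not be told from the spread (exact permutation p = 0.2, 0.533 adjusted).

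**Figure D2:**
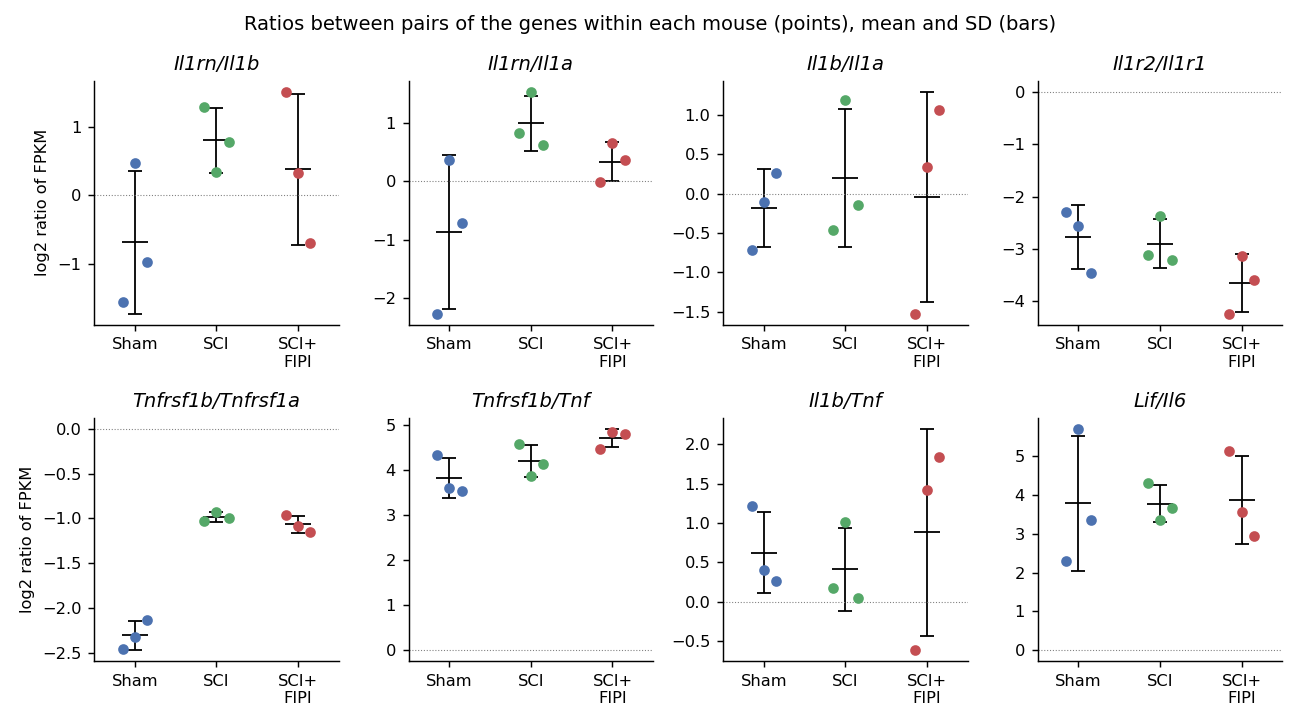
Each point is the log2 ratio of the FPKM of 2 of the genes in 1 mouse (y axis, 8 pairs, 3 mice per group), with the mean and 1 SD as bars. The ratio of Tnfrsf1b to Tnfrsf1a was -2.31 in Sham and near -1 in both injured groups, and no pair set SCI+FIPI apart from SCI.

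Il6 (ENSMUSG00000025746, chr5:30013114-30019981) was barely detected on day 7. It had 4, 0 and 1 counts in the Sham mice, 3, 9 and 4 in the SCI mice and 1, 3 and 6 in the SCI+FIPI mice. The groups overlapped, and the mouse with no count allows up to 0.132 CPM by the count of 3 that a 0 leaves possible. Pooled over the 3 mice, Il6 was at 0.0741 CPM in Sham (exact Poisson 95% interval 0.0241 to 0.173), 0.220 in SCI (0.126 to 0.358) and 0.144 in SCI+FIPI (0.0689 to 0.264), intervals that cover counting error only. With the filter on low counts removed, its edgeR adjusted p was 0.231 for SCI against Sham, 0.765 for SCI+FIPI against SCI and 0.539 for SCI+FIPI against Sham. A change of Il6 was not detectable at this depth.

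Lif, a gp130 cytokine that maintains stem cells and acts on neurons and glia (ENSMUSG00000034394, chr11:4257557-4272514), was measured far better than Il6, at 117, 402 and 258 counts per group. Its level was 1.87, 2.16 and 1.17 CPM in Sham, 5.24, 7.19 and 4.35 CPM in SCI and 4.25, 3.14 and 3.73 CPM in SCI+FIPI. Again the 3 groups did not overlap, with SCI+FIPI just under SCI. The log2 fold change was 1.69 for SCI against Sham (SE 0.246, edgeR adjusted p = 2.3e-05), the smallest rise among the 9 genes. Between SCI+FIPI and SCI it was -0.60 with a 95% interval of -1.08 to -0.11 (edgeR adjusted p = 0.112), and it was called only when no filter was used (adjusted p = 0.0297). SCI+FIPI remained above Sham by 1.10.

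**Figure D3:**
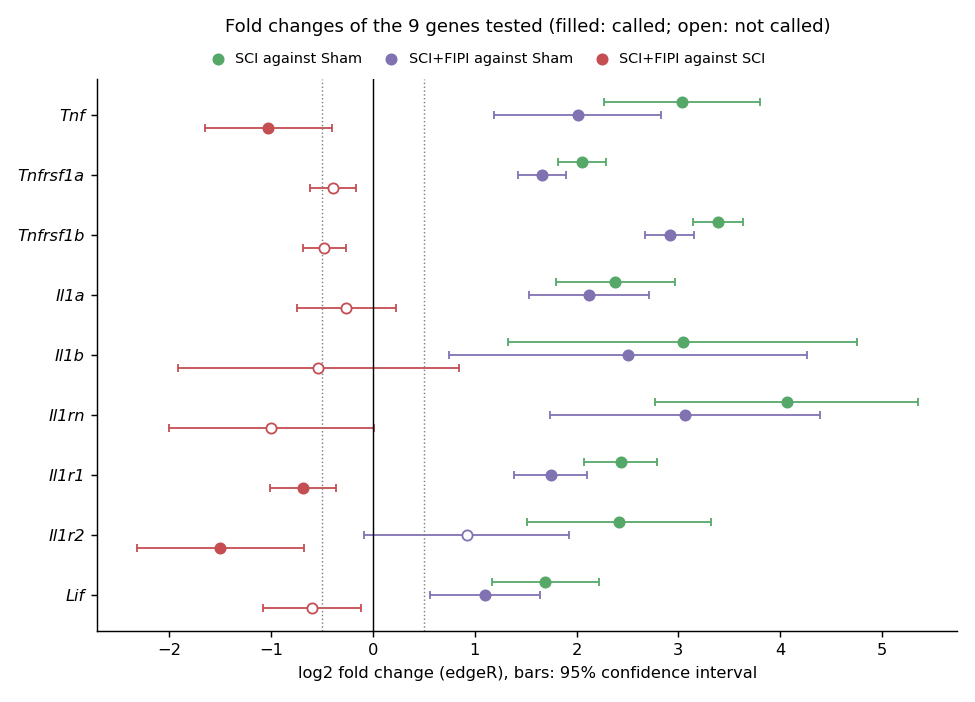
The edgeR log2 fold change (x axis) of each of the 9 genes tested is shown for the 3 comparisons, with bars for the 95% interval, filled points for called genes and dotted lines at the fold limit of 0.5. The values for SCI+FIPI against SCI ran from -1.50 for Il1r2 to -0.26 for Il1a, and those for SCI against Sham from 1.69 for Lif to 4.06 for Il1rn.

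The direction of SCI+FIPI against SCI was negative in all 9 genes. With the limit on p alone, 5 of the 9 passed downward (Tnf, Tnfrsf1a, Tnfrsf1b, Il1r1 and Il1r2), against 3.58% of all genes tested. Every SCI+FIPI mouse was below every SCI mouse in CPM in 7 of the 9, against 14.5% of all genes tested. Il1a and Il1b were the 2 that overlapped, and Tnf also did on unscaled library totals. For SCI against Sham the groups did not overlap in any of the 9, where 35.6% of all genes tested lay wholly above Sham. The same held for SCI+FIPI against Sham in all 9, where the share over all genes tested was 33.4%.

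In each group 1 mouse had the highest value in most of these genes. In Sham it was mouse 2, the highest in 7 of the 10, against 33.7% of all genes tested. SCI mouse 2 was the highest SCI mouse in 9 of the 10 genes (Il1a was the exception), whereas it was the highest in 30.4% of all genes tested. SCI mouse 1 was the lowest in 9 of the 10, against 34.9% of all genes tested. The myeloid marker sum did not follow that order, at 6419, 6179 and 7477 CPM in SCI mice 1, 2 and 3. Of the 14 marker lists, only fibroblasts and pericytes and skeletal muscle were lowest in mouse 1 and highest in mouse 2. Their sums in SCI mice 1, 2 and 3 were 9099, 12285 and 11602.5 CPM and 10.7, 39.1 and 12.9 CPM. The part of cell makeup in this order was not tested. In SCI+FIPI, mouse 1 was the highest in 6 of the 10, against 35.5% of all genes tested. That mouse also had the highest myeloid sum, 5814 CPM against 4515 and 4932 CPM. Without SCI mouse 2, only 1 of the 9 genes was called between SCI+FIPI and SCI, and without SCI mouse 1, 4 were.

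By FPKM, which allows genes to be compared with each other, 3 of the 4 receptors (Tnfrsf1a, Tnfrsf1b and Il1r1) were more abundant than every ligand, whereas the decoy Il1r2 was below Il1a and Il1b in each group. In Sham the order of the means began with Tnfrsf1a at 16.4, Tnfrsf1b at 3.29 and Il1r1 at 1.57, each apart from the next. Il1a, Lif, Il1b, Il1rn, Tnf and Il1r2 followed between 0.421 and 0.227 and could not be separated from their neighbours, and Il6 was last at 0.0321. In SCI the same 3 receptors led at 66.5 ± 5.94, 33.7 ± 4.07 and 8.34 ± 1.68 FPKM (SD, n = 3), and Il1rn moved to the fourth place at 4.47 ± 1.74. After it came Il1b at 2.83, Il1a at 2.13, Tnf at 1.90, Lif at 1.27 and Il1r2 at 1.19, where each overlapped the next, and Il6 at 0.0902. In SCI+FIPI the order of the 10 was as in SCI, from 51.5 for Tnfrsf1a to 0.0584 for Il6. There Il1a at 1.81 was apart from Tnf at 0.952, and Lif at 0.854 was apart from Il1r2 at 0.427. The place of Il1rn depends on the length used: with the longest transcript of each gene it was at 0.588 FPKM in Sham, in the fourth place, and at 9.68 ± 3.77 in SCI, level with Il1r1 at 9.13 ± 1.83. Tnfrsf1a and Tnfrsf1b led under either length.

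The genes were also set against the myeloid marker sum of the same mouse, and the outcome depended on which markers made up the sum. With all 10 markers it was higher in SCI than in Sham by 3.74 on the log2 scale. Lyz2, the lysozyme of macrophages and neutrophils, made up 25.3% of that sum in Sham and 67.6% in SCI, and rose by 5.13, followed by Cd68 with 4.55. The median rise of the 10 markers was 2.66, which Tnf, Tnfrsf1b, Il1b and Il1rn exceeded. Without Lyz2 and Cd68 the sum was higher in SCI by 2.10, and this version was added after the values were seen. Il6 was left out here, because the count of 0 in Sham mouse 2 gives it a value that rests on the prior count of 2 alone.

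Relative to the sum of all 10 markers, 5 of the 9 genes (Tnfrsf1a, Il1a, Il1r1, Il1r2 and Lif) were lower in every SCI mouse than in every Sham mouse, against 98.2% of all genes tested. Tnf, Tnfrsf1b, Il1b and Il1rn overlapped, with differences of -0.95, -0.36, -1.06 and 0.51 on the log2 scale. Without Lyz2 and Cd68 none of the 9 was lower, against 90.5% of all genes tested, and Tnfrsf1b and Il1rn were higher in every SCI mouse, by 1.28 and 2.16. For SCI+FIPI against Sham, 8 of the 9 genes, all but Il1rn, were lower relative to the 10 markers in every SCI+FIPI mouse, against 98% of all genes tested. That count became 3 (Tnfrsf1a, Il1r2 and Lif) without Lyz2 and Cd68, against 89.4%, with Tnfrsf1b and Il1rn higher.

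In SCI+FIPI the sum of all 10 markers was lower than in SCI by 0.40 on the log2 scale, and that without Lyz2 and Cd68 by 0.30, both with no overlap. Relative to the 10 markers the differences of SCI+FIPI from SCI were -0.55 for Tnf, -0.27 for Il1r1, -0.95 for Il1r2, 0.01 for Tnfrsf1a and -0.07 for Tnfrsf1b. On this scale none of the 9 genes lay wholly below SCI, against 0.39% of all genes tested. None lay wholly above it either, so all 9 overlapped (exact permutation p of 0.2 or more for each, 27 tests). The share of all genes tested that overlapped is not given. Without Lyz2 and Cd68 the differences were -0.65 for Tnf, -0.37 for Il1r1, -1.05 for Il1r2 and -0.09 for Tnfrsf1a. There Il1r1, Il1r2 and Tnfrsf1a lay below SCI in every mouse, against 1.05% of all genes tested, each at the exact permutation p of 0.1 that is the smallest possible.

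**Figure D4:**
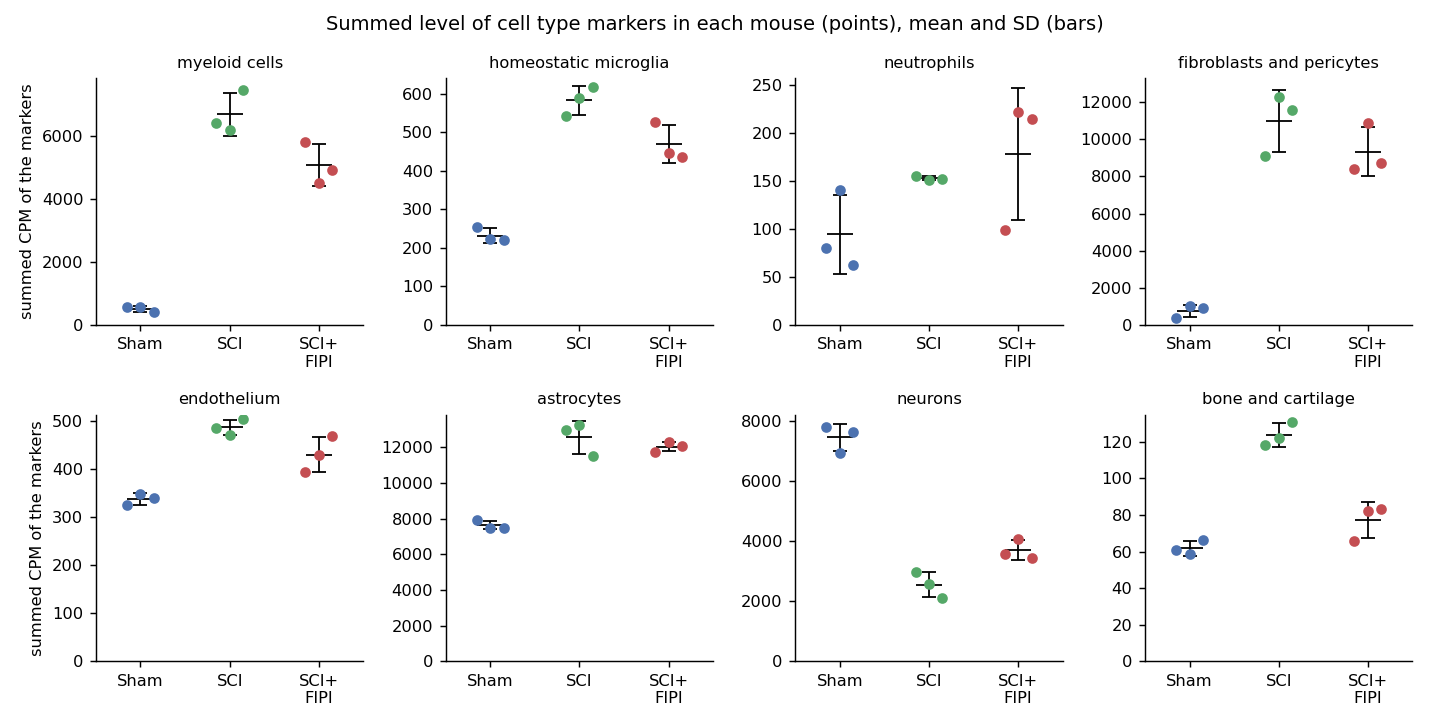
The summed CPM of 8 marker lists (y axis from 0, a separate scale for each list) is plotted for each mouse, with the mean and 1 SD as bars. Myeloid markers were at 4515 to 5814 CPM in SCI+FIPI against 6179 to 7477 in SCI, and neutrophil markers at 99.0 to 222 against 151 to 155.

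No gene of the myeloid or neutrophil marker lists was called between SCI+FIPI and SCI by edgeR, DESeq2 or limma-voom. At an unadjusted edgeR p under 0.05, 5 of the 10 myeloid genes were lower and none of the 10 neutrophil genes passed. The median log2 fold change of the myeloid list there was -0.36, and its genes ran from -0.48 for Cd68 to -0.22 for Csf1r. The 9 genes tested ran from -1.50 for Il1r2 to -0.26 for Il1a, with a median of -0.60. The neuronal marker sum was 2115 to 2968 CPM in SCI, 3449 to 4085 CPM in SCI+FIPI and 6936 to 7786 CPM in Sham. The part of these cells in the levels of the 10 genes was not tested.

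The other genes of the 3 pathways were counted from 9 lists of 141 genes, 124 of them tested. For SCI against Sham 86 were called higher and 8 lower, where 22.5% of all genes tested were called lower, and for SCI+FIPI against SCI none was called higher and 3 lower. Under the same limits on the adjusted p and the fold change, DESeq2 called none higher and 4 lower, and limma-voom none higher and 5 lower. At an unadjusted edgeR p under 0.05, 3 of the 124 were higher and 42 lower in SCI+FIPI than in SCI, where 13.7% of all genes tested were higher and 11.5% lower. For SCI+FIPI against Sham 81 were called higher and 7 lower, where 17% of all genes tested were called lower.

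Of 11 other IL-1 family genes tested, 6 were called higher and 2 lower in SCI than in Sham, with a median of 1.06 on the log2 scale. The largest rises were in receptor chains: Il1rl2 (2.87), which binds IL-36, Il18rap (2.16), the accessory chain for IL-18, and Il1rl1 (2.05), which binds IL-33. Il18r1, the chain that binds IL-18, was too low to test, with at most 12 counts in a mouse. The 2 that fell were Il1rapl2 (-2.02) and Il1rapl1 (-1.13), neuronal members of the receptor family. Il1rap, the chain that IL-1R1 needs in order to signal, was chosen after its values were seen, and was at 50.7 ± 0.62, 41.0 ± 1.63 and 40.6 ± 2.85 CPM in Sham, SCI and SCI+FIPI (SD, n = 3). None of the 11 was called between SCI+FIPI and SCI by edgeR, DESeq2 or limma-voom (2 were lower at an unadjusted edgeR p under 0.05), and the list's median there was -0.13.

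Of 12 genes of IL-1 release and receptor-proximal signaling, 7 were called higher and 1 lower in SCI. The rises were led by Casp1 (1.89), which cuts pro-IL-1β, Irak4 (1.73), a kinase at the receptor, and Irak3 (1.66), an inhibitor of that step, and Tab3 fell by 1.01. Irak4 overlaps Twf1 and Irak3 overlaps Gm47009 and Tmbim4, so their counts may hold reads of those genes. No gene of this list was called between SCI+FIPI and SCI by edgeR, DESeq2 or limma-voom, where the median was -0.14, although 6 were lower and 1 higher at an unadjusted edgeR p under 0.05.

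Of 10 other TNF superfamily ligands tested, 5 were called higher and 1 lower in SCI than in Sham. Tnfsf12 (1.97), which overlaps Tnfsfm13, and Tnfsf8 (1.88) were among the 3 with the largest fitted rises. The other was Tnfsf14, near the detection limit in Sham with 0, 0 and 5 counts against 17, 15 and 14 in SCI, so its fold change is not given. In the other direction, Tnfsf13b, which encodes BAFF, fell by 1.02. Tnfsf8, the ligand of CD30, was also called lower in SCI+FIPI than in SCI (-0.91, SE 0.27, edgeR adjusted p = 0.0461), at 0.814, 3.00 and 1.60 CPM in Sham, SCI and SCI+FIPI. In SCI+FIPI against Sham the 3 largest rises included Tnfsf11 (1.47), which encodes RANKL and had 2 to 6 counts in the Sham mice.

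Of 24 other TNF receptor superfamily members tested, 16 were called higher and 2 lower in SCI. Tnfrsf26 (4.32), which overlaps E230032D23Rik, Ngfr (2.24), the p75 neurotrophin receptor, and Tnfrsf13b (2.08), a receptor for BAFF and APRIL, rose most, while Tnfrsf13c, the BAFF receptor (-0.76), and Relt (-0.74) fell. Tnfrsf13b was called lower in SCI+FIPI than in SCI (-0.57, edgeR adjusted p = 0.0307), at 2.82, 11.96 and 8.08 CPM in the 3 groups. Tnfrsf23 (1.81) was among the 3 largest rises of SCI+FIPI against Sham.

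Of 15 genes of TNF shedding and receptor-proximal signaling, 12 were called higher in SCI and none lower. Rhbdf2 (2.80), an iRhom that ADAM17 requires, Casp8 (2.46), which conveys the death signal of TNFR1, and Tnfaip3 (2.04), which encodes the NF-κB inhibitor A20, rose most. Casp8 was called lower in SCI+FIPI than in SCI (-0.53, edgeR adjusted p = 0.0149), at 5.77, 31.9 and 22.1 CPM in the 3 groups. The protease Adam17, chosen after its values were seen, rose by 1.37 in SCI and had a log2 fold change of -0.35 for SCI+FIPI against SCI (edgeR adjusted p = 0.0149), under the fold limit.

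Of 13 other genes of the gp130 family tested, 10 were called higher in SCI and none lower. Large rises were those of Osm (3.23) and of Ebi3 (2.48), which overlaps Gm16712 and encodes a subunit of IL-27 and IL-35. Among receptor chains chosen after their values were seen, Il6ra rose by 1.80 and Il6st by 0.61, and Lifr stood at -0.48, under the fold limit. In contrast to Il6 itself, its receptor was thus readily measured, at 11.1, 38.6 and 28.4 CPM in the 3 groups. No gene of the family was called between SCI+FIPI and SCI by any of the 3 tools, and 4 were lower at an unadjusted edgeR p under 0.05. Il6ra there had a log2 fold change of -0.44 (edgeR adjusted p = 0.0108).

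Of 9 gp130 signaling genes, 5 rose in SCI, led by the STAT3 feedback inhibitor Socs3 (2.71), Socs1 (1.15) and the kinase Tyk2 (0.87). Of 19 NF-κB feedback and response genes, 15 rose and 2 fell. The largest fitted rises were in Tnfaip2 (3.08), Icam1 (2.57), an adhesion molecule for leukocytes, and Tnip3, which had 1, 3 and 0 counts in Sham against 18, 23 and 7 in SCI. The falls were in Sod2 (-1.02) and Tnfaip6 (-0.67). Of 11 STAT3 and acute-phase genes, 10 rose, led by Saa3 (3.72), Timp1 (2.78) and Il4ra (2.55). None of these 3 lists held a gene called by edgeR between SCI+FIPI and SCI, where their medians were -0.12, -0.30 and -0.26 on the log2 scale. At an unadjusted edgeR p under 0.05, 2, 6 and 3 of their genes were lower, and DESeq2 and limma-voom each called 1 gene of the STAT3 list lower and none of the other two.

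**Figure D5:**
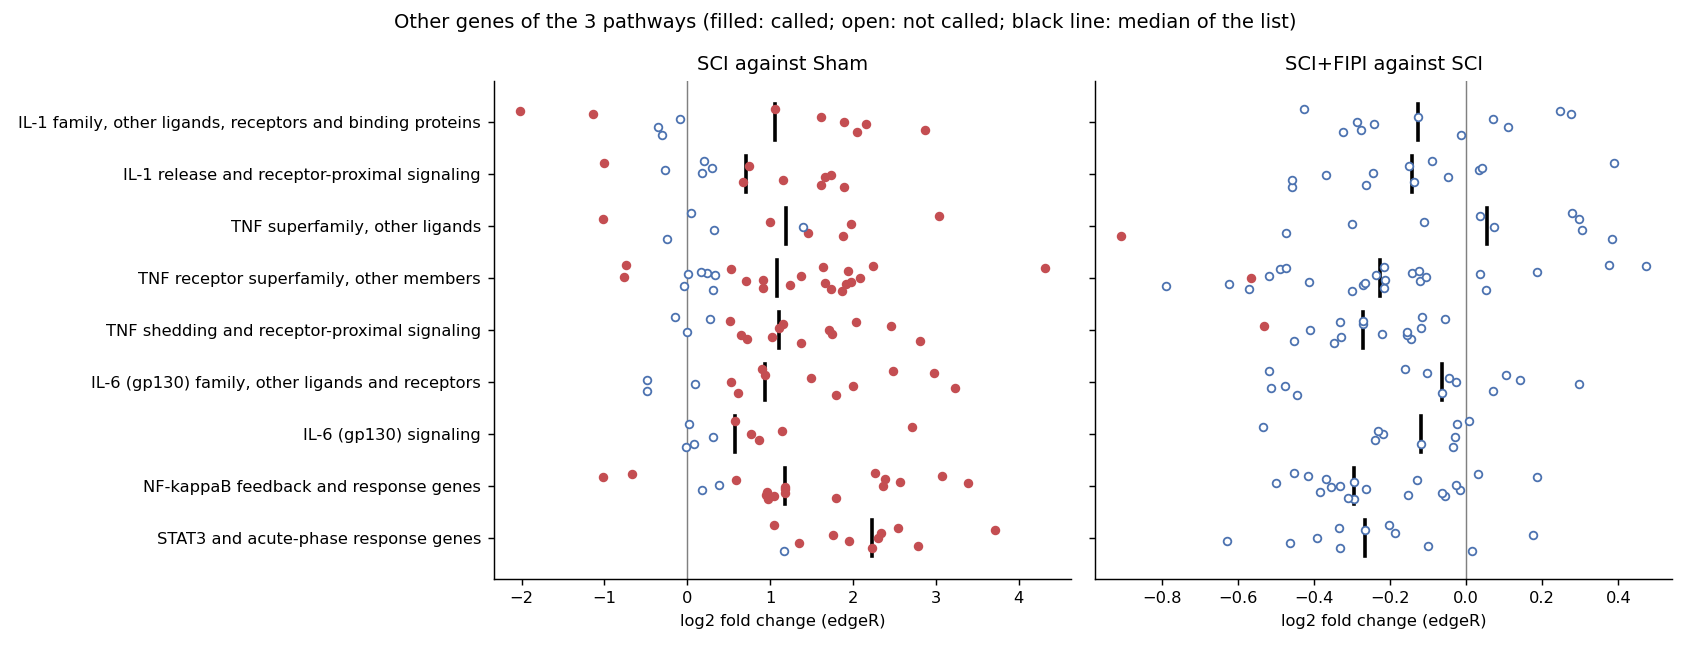
Each point is the edgeR log2 fold change (x axis, a separate scale for each panel) of 1 gene of the 9 pathway lists, filled where called, with a black line at the median of the list. Most points of SCI against Sham lie above 0, with 86 called higher and 8 lower, and 3 points (Tnfsf8, Tnfrsf13b and Casp8) are called in SCI+FIPI against SCI.

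Several of the genes lie in clusters with relatives. Il1a and Il1b are 54597 bp apart on chromosome 2 and both rose after injury. Il1r2 and Il1r1 are 99848 bp apart on chromosome 1 and both were called in SCI+FIPI against SCI, whereas Il1rl2, which begins 7352 bp beyond Il1r1, was not (-0.28, edgeR adjusted p = 0.235). The difference between those 2 changes was not tested. Osm lies 16530 bp from Lif on chromosome 11 and also rose in SCI (3.23), with -0.51 for SCI+FIPI against SCI (edgeR adjusted p = 0.132). Beside Tnf, Ltb at 3060 bp had no call in either comparison (-0.24, edgeR adjusted p = 0.610 for SCI against Sham), and Lta at 1157 bp was too low to test, with at most 15 counts in a mouse. Ltbr, 35476 bp from Tnfrsf1a, rose by 1.86.

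Transcripts of these cytokines are known for AU-rich elements in the 3′ UTR that shorten their life. In the longest coding transcript of each gene (GENCODE M21), the pentamer ATTTA occurred 8 times in Tnf, 10 times in Il6, 7 times in Lif, 4 times in Il1b and 3 times in Il1a. The receptors differed among themselves, with 8 occurrences in the 3′ UTR of Il1r1, 2 in Tnfrsf1b and none in Tnfrsf1a, and Il1rn had none. Il1r2 had none in a 3′ UTR of 24 bases. The longer form TTATTTATT occurred 5 times in Tnf and 2 times in Lif and in no other of the 10 genes. Over 20952 protein-coding genes the median was 1 ATTTA, 27.7% had at least 4 and 7.58% held the longer form. Raw counts depend on the length of the 3′ UTR. Per kilobase the count was 10.5 in Tnf, 8.71 in Il1b, 6.0 in Il6 and 2.72 in Il1a. It was 2.20 in Lif, 2.07 in Il1r1 and 0.861 in Tnfrsf1b, with a median of 1.22 over those protein-coding genes. Among the genes called in SCI+FIPI against SCI, Tnf had 8 ATTTA in 764 bases, Il1r1 8 in 3864 and Il1r2 none in 24. The part of these letters in the changes was not tested.

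The genes whose level over the 9 mice was most like that of Tnf, among 14553 genes at a mean log2 CPM of at least 1, were Cstf1, Gjc1 and Tfdp1 (Pearson r of 0.995, 0.991 and 0.991, n = 9 mice). For Il1r1 they were Gcnt2, Slc31a2 and Tmed2 (0.998, 0.996 and 0.996). For Il1b they were Fiz1, Nfkbia and Cbfa2t3 (0.970, 0.967 and 0.966). These values describe 9 mice in 3 groups, share the libraries and their depth, and are the highest of many.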

How the data were processed

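RNA of the spinal cord segment around the injury was sequenced in 9 mice after oligo(dT) enrichment. Reads were trimmed of adapters and low-quality bases by the authors, who deposited raw counts per gene, as whole numbers without normalization. The aligner, the counting program and its strand setting are not given in the sources used here, and the submitters' processing notes name GRCm38 and R 4.2.3. Of the 52550 identifiers, 52403 were found in GENCODE M21 (GRCm38), which gave symbols, positions and exonic lengths. The labels number the samples but do not state that each is a separate animal. If some are not, the p-values would measure only the spread between samples.

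Counts were scaled by TMM, filtered with filterByExpr and fitted in R 4.3.3 with edgeR 4.0.16 (quasi-likelihood, robust, 1 mean per group, all 9 mice), with Benjamini-Hochberg adjustment over 18699 genes. The fold limit of 0.5 and the p limit of 0.05 follow the study. Mice of a group varied with a biological coefficient of variation of 9.3%. CPM uses the TMM-scaled totals, and FPKM was the CPM on unscaled totals per kilobase of exon. Ratios and levels relative to the myeloid markers were compared by the two-sided exact permutation test, which allows no p under 0.1 with 3 mice against 3. A precision limit follows from the counts: Tnf had at most 101 in a mouse.

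On simulated data for SCI+FIPI against SCI, the fit recovered 66 of 100 genes changed by 1 on the log2 scale and 92 of 100 changed by 2, with 7 false calls over 18699 genes. Alternatives were DESeq2 1.42.0, limma-voom (limma 3.58.1), other factors and filters, offsets for GC content and length, a replicate block and leaving out each mouse. Promoter sequences are from RefSeq (GRCm38.p6, all 10 genes matched), and Python 3.11.15 with pandas 2.3.3, matplotlib 3.10.9 and scipy 1.17.1 served for the remaining steps. The 10 genes, the pathway and marker lists and the tests were chosen with earlier results of these data known. The genes named from each pathway list were the called genes with the 3 largest rises and falls of each comparison, every called gene of SCI+FIPI against SCI, and neighbours of the 10 genes, and other names are marked in the text. A gene that this rule would name is not reported here.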

Additional observations from a re-analysis of the deposited data

How the results depend on the processing

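Each of the 9 genes tested was called between SCI and Sham under each setting that tested it. Il1b, called between SCI+FIPI and Sham, lost that call in the settings without 1 mouse given above and with no filter on low counts (adjusted p = 0.0608), and calls between SCI+FIPI and SCI were the least stable. Over 479 values of single genes under the alternatives, 454 kept their direction and side of the limits, 20 lost a call, 4 gained one and 1 changed sign. The change of sign was that of Il1b for SCI+FIPI against SCI without SCI mouse 2, where the values with a mouse left out ran from -0.99 to 0.20. The 3 genes called between SCI+FIPI and SCI became 1 when at least 10 counts were required in every mouse, which removed Tnf and Il1r2, 5 with no limit on the fold change, and 0 to 4 when each mouse was left out in turn, with 0 without SCI+FIPI mouse 2 or 3. Over all genes the 572 calls became 1800 with no limit on the fold change and 189 to 1038 with a mouse left out (1038 without SCI mouse 1, 341 without SCI mouse 2, 240 without SCI mouse 3 and 189 without SCI+FIPI mouse 2). For SCI+FIPI against Sham the 7128 calls became 11060 with no limit on the fold change. Tnf between SCI+FIPI and SCI was at an edgeR adjusted p of 0.0529 when only the 6 mice compared were fitted. With offsets for GC content and length, the share of calls in the higher direction moved from 77.3% to 67.1% in SCI+FIPI against SCI and from 55.5% to 44.9% in SCI+FIPI against Sham, where the median over all genes became -0.11. With the replicate number as a block, SCI+FIPI against SCI had 2 of the 9 genes called and 555 genes in all, and Tnf (-0.98, adjusted p = 0.0692) was the call lost. Deviations of same-numbered mice correlated at -0.0726 to 0.1085. Differently numbered mice were not compared, so these values cannot settle whether the numbers pair the mice. The number of ratios, of 8, with groups apart was 2 to 4 for SCI against Sham, 0 to 4 for SCI+FIPI against SCI and 2 to 4 for SCI+FIPI against Sham with a mouse left out, against 2, 0 and 2 with all mice. Of the 9 genes tested, relative to the myeloid markers, 5 to 8, 0 to 2 and 8 were apart in these comparisons with a mouse left out, against 5, 0 and 8, and 2, 3 and 5 with Lyz2 and Cd68 left out of the marker sum, which turned the direction for SCI against Sham. These alternatives, and lengths of the longest transcript, which left the counts of ratios at 2, 0 and 2, were chosen after seeing the data. With 3 mice left against 2, fewer mice make it easier for groups not to overlap. Depth limited Il6, with 31 counts in all, and Il1r2, for which DESeq2 gave no adjusted p between SCI+FIPI and SCI. Beyond the settings named, the cause of these changes was not tested.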
